A study of Mus musculus with 16 samples.

Results

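The mouse microRNAs (miRNAs) numbered miR-680 to miR-721 were followed through 4 stages of mast cell culture. Members were all array entries whose number falls in that range, with any arm suffix, which gave 44 of the 577 miRNAs on the array. The rule reads names and no measured value, and it was set with earlier results of these data known. Of the 44 members, 19 passed the filter and could be tested, which took a signal well above background on 3 or more arrays of some group. Another 4 were above it on a few arrays, and 21 were above it on no array.

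A mature miRNA is a short RNA cut from a hairpin precursor and loaded into an Argonaute protein, where the bases near its 5′ end, the seed, pair with target messenger RNAs. Numbers in this range were given to a run of mouse small RNAs found by early cloning and sequencing, and most of them are poorly conserved outside rodents. Some were later traced to other RNAs. miR-720 matches a fragment of a threonine transfer RNA and lost its miRNA status, miR-712 of the mouse comes from precursor ribosomal RNA, and the sequence of miR-706 resembles the B1 repeat, a short interspersed element of the mouse genome. Among the others, miR-708 lies in an intron of Tenm4 and is conserved among mammals. Mouse miR-709 has been described as mostly nuclear and acting on the precursor of miR-15a and miR-16-1, and mouse miR-690 as an anti-inflammatory miRNA of macrophage vesicles.

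All cells came from the bone marrow of Balb/c mice grown with the mast cell growth factors IL-3 (5 ng/ml) and SCF (20 ng/ml). Progenitors are c-kit-positive cells taken by magnetic separation on day 6, and BMMC are the immature mast cells present after 4 weeks. MMC received IL-9 and TGF-beta for 5 more days, which moves them to a mucosal type, while IgE_BMMC are BMMC carrying IgE against DNP that met the antigen for 2 hours. Each group has 4 one-colour arrays, each loaded with 100 ng of RNA whose integrity number exceeded 8. The series calls these biological replicates without saying whether animals or cultures were separate, so the p-values cover only the spread among these arrays, part of which may be technical. The comparisons ask how miRNAs differ between progenitors and BMMC, after the mucosal cytokines, and after IgE activation. MMC were also set against IgE_BMMC.

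RefSeq held a mature sequence for 28 of the 44 members, 11 of them tested. These 11, the tested members with a sequence, are shown, and miR-130a-3p is added because it carries the seed of miR-721. Capitals mark the seed, bases 2 to 8 from the 5′ end.
miR-680: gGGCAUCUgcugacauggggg
miR-681: cAGCCUCGcuggcaggcagcu
miR-690: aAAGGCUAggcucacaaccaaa
miR-697: aACAUCCUgguccuguggaga
miR-705: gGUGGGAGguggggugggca
miR-706: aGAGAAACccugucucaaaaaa
miR-708-5p: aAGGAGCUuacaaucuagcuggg
miR-710: cCAAGUCUuggggagaguugag
miR-711: gGGACCCGgggagagauguaag
miR-718: cUUCCGCCcggccgggugucg
miR-721: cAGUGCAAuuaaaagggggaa
miR-130a-3p: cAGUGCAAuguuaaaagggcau

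The 28 members have 28 different seeds, so the members do not form a seed family. A seed is shared with another RefSeq mouse miRNA by 4 of them. miR-721 shares AGUGCAA with miR-130a-3p, miR-130b-3p, miR-130c and miR-301a-3p, miR-708-5p shares its seed with miR-28a-5p, and miR-705 and miR-686 share theirs with later, higher-numbered entries. The GC content of the tested members ranged from 36.4% to 81.0% with a median of 54.5% (n = 11), beside 33.3% to 61.9% with a median of 47.8% for those not tested (n = 17). These values are descriptions with no test.

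In the RefSeq annotation of GRCm38.p6, 24 of the 28 members lie inside the span of another gene. miR-711 (chr9:108969970-108969991, plus strand) lies in Col7a1, a collagen gene. miR-721 (chr5:136375777-136375797, minus strand) lies in Cux1, which encodes a homeodomain transcription factor. miR-718 (chrX:74023857-74023877, minus strand) lies in Irak1, a kinase of Toll-like and IL-1 receptor signalling. miR-706 (chr6:120034290-120034311, minus strand) lies in Wnk1, miR-705 (chr6:85336341-85336360, minus strand) in Rab11fip5, miR-697 (chr4:124731768-124731788, plus strand) in the splicing factor gene Sf3a3, and miR-690 (chr16:28599940-28599961, minus strand) in Fgf12. miR-710 (chr8:64514401-64514422, minus strand) lies in no other annotated gene. miR-680 is placed at 3 loci, chr6:129691541-129691561 and chrX:144297790-144297810 on the plus strand and chr12:35194849-35194869 on the minus strand. Whether exons or introns hold these sequences was not analysed here.

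The sequence of miR-706 recurs in promoters. The 15 bases from position 2 to 16, GAGAAACCCTGTCTC as DNA, were searched on both strands of 32851 RefSeq mouse promoters of 300 bases and occurred in 30, or 0.0913%. The same window of every other member with a sequence occurred in at most 1. Over 1679 RefSeq mature names the median was 0 promoters, and 3 names occurred in more promoters than miR-706. A match describes these letters and is not evidence of a site.

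Arrays differed in brightness by group, and this touches every result below. The 75th percentile of the raw signal, over the 205 probes well above background on all 16 arrays, was highest in BMMC, at 1578 ± 199 intensity units, followed by MMC at 780 ± 62.1, while progenitors (393 ± 52.6) and IgE_BMMC (385 ± 50.2) were alike and dimmest (SD, n = 4). Signals were divided by this percentile, raised to a floor of 11.8 (3.56 on the log2 scale) and put on the log2 scale. The faintest signal still called above background also differed, from 1.60 to 2.20 on this log2 scale in BMMC, 2.90 to 3.49 in MMC, 3.62 to 3.98 in IgE_BMMC and 4.00 to 5.86 in progenitors, highest on progenitor replicate 4. Before scaling it was 5.29 on that array and 2.81 to 3.69 on the other 15. Arrays of one group correlated between 0.938 and 0.998 over the miRNAs. The haematopoietic miR-142-3p was above background on all arrays, and miR-122 of liver, miR-9 and miR-124 of neurons and miR-1, miR-133a and miR-206 of muscle on none. Progenitors also carried markers of other marrow cells. The granulocyte and monocyte miRNA miR-223 averaged 12.35 in progenitors and 7.39 to 8.50 elsewhere. The red cell miR-451 was above background on all 4 progenitor arrays and on no other array, and miR-144 on none. Their part in the progenitor values below was not tested, and in such bulk samples fewer cells of a type and less RNA per cell cannot be told apart.

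Detection of the members was most frequent on the brightest arrays, those of BMMC. The number of members above background per array was 18.75 ± 1.71 in BMMC (range 17 to 21), 15.25 ± 2.22 in MMC (13 to 18), 14.75 ± 2.63 in progenitors (11 to 17) and 12.25 ± 0.5 in IgE_BMMC (12 to 13; SD, n = 4). On all 16 arrays 9 members were above background: miR-680, miR-689, miR-690, miR-694, miR-709, miR-710, miR-711, miR-720 and miR-721. A further 10 were tested without reaching that: miR-681, miR-685, miR-697, miR-700, miR-705, miR-706, miR-708, miR-712, miR-714 and miR-718. miR-691, miR-702 and miR-703 were above background on 1 array each and miR-715 on 4 arrays, so none of these was tested. Of the 21 members above background nowhere, 14 sat at the floor on every array and the highest value among the 21 was 4.98. Detection of the members stood beside 38.4% (183 of 477) of mouse miRNAs with lower numbers and 30.4% (14 of 46) of those with higher ones, against 43.2% (19 of 44) in the range, with no test.

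**Figure D1:**
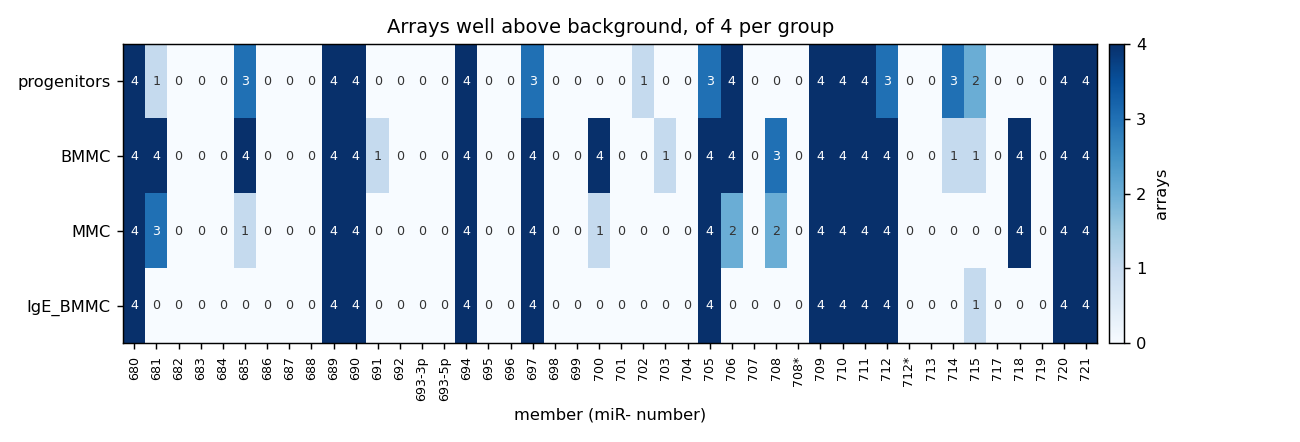
Number of arrays, of 4 per group, on which each of the 44 members (columns, by number) was well above background in each group (rows); darker cells mean more arrays. The members seen on all 16 arrays stand out as 9 fully dark columns, and 21 columns are empty in every group.

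From progenitors to BMMC most members that changed were lower. Of 19 tested, 9 fell (miR-685, miR-690, miR-694, miR-697, miR-706, miR-710, miR-711, miR-714 and miR-720) and 1 rose (miR-721) at an adjusted p under 0.05 with limma. These 10 are 52.6% of the members, while 66.4% of all 217 tested miRNAs were called in this comparison, 21.2% higher and 45.2% lower. The median log2 difference was -0.66 over the members and -0.30 over all tested. The groups did not overlap in 8 members, beside 56.7% of all tested miRNAs. The 8 include miR-685 and miR-714, whose value on progenitor replicate 4 was not above background and has no certain rank. miR-714 passed the filter through progenitors alone, the group where it is high. The split of higher and lower calls depended on scaling: it was 1 to 9 here, 7 to 5 with the 75th percentile of all probes, 12 to 3 without scaling, 5 to 8 with quantile normalization, 8 to 5 in the authors' value table and 0 to 16 with the normexp background correction. The median of all tested miRNAs moved with it, to 0.72, 1.38, 0.06, 0.69 and -1.34 in that order, so a member's change is read below against that median as well.

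miR-711 had the largest log2 difference among the members. Its log2 signals were 8.64, 8.32, 9.13 and 9.29 in progenitors and 6.22, 5.85, 5.39 and 5.43 in BMMC. Every progenitor array lay far above every BMMC array. The log2 difference was -3.12 ± 0.47 (SE), 8.71-fold lower in BMMC (adjusted p = 4.94e-05). Relative to the median of all tested miRNAs it stood between -2.82 and -1.36 under all 6 ways of scaling, and its own difference was no longer called without scaling (-1.11).

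miR-710, which lies in no other annotated gene, fell too. Its log2 signals were 6.79, 6.78, 7.29 and 7.48 in progenitors and 5.01, 5.16, 4.77 and 4.95 in BMMC, with no overlap. It fell by 2.11 ± 0.18 on the log2 scale (4.32-fold lower, adjusted p = 1.24e-07). Without scaling it was -0.10 and not called.

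miR-706, the member like the B1 repeat, was high in progenitors and at or near the floor afterwards. Its log2 signals were 5.97, 6.10, 5.86 and 6.17 in progenitors, and all 4 BMMC arrays were at the floor of 3.56. All 4 BMMC arrays were nevertheless called above background, and the log2 difference of -2.47 ± 0.06 (adjusted p = 5.58e-13) is the distance to the floor. Values held at the floor have no spread, with an SD of 0 in BMMC and in IgE_BMMC. This shrinks the SE and the p-value, which therefore do not measure the precision of the fall. Before scaling, progenitors averaged 5.28 ± 0.29 and the brighter BMMC arrays 3.83 ± 0.21 (SD, n = 4). The fall was called under each of the 9 alternatives run on all arrays, from -2.59 to -0.98.

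miR-714 behaved likewise. Its log2 signals were 5.31, 5.34, 5.26 and 5.82 in progenitors, where replicate 4 was not above background, and it was at the floor on all BMMC arrays and above background on 1 of them. The log2 difference to the floor was -1.88 ± 0.09 (adjusted p = 5.82e-10), and it was called under each of the same 9 alternatives. Here too the SE and p-value are shrunk by the floor, as the SD was 0 in BMMC, MMC and IgE_BMMC. In MMC and IgE_BMMC it was above background on no array and was not tested between them. Only progenitors brought miR-714 through the filter. Its fall and lack of overlap thus follow in part from the filter and the floor.

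miR-685 had the log2 signals 5.32, 5.79, 6.28 and 4.09 in progenitors, the last not above background, and lay at the floor on every BMMC array. All 4 BMMC arrays were nevertheless called above background. Before scaling, progenitors averaged 4.63 ± 0.78 and BMMC 3.82 ± 0.35 (SD, n = 4). The 3 progenitor arrays above background lay above all BMMC arrays, and the remaining one cannot be ranked. The log2 difference to the floor was -1.82 ± 0.32 (adjusted p = 0.000191), and only the authors' value table lost the call among the alternatives on all arrays. This SE is also narrowed by arrays held at the floor, with an SD of 0 in BMMC, MMC and IgE_BMMC. miR-694 also spread widely, with log2 signals of 6.74, 5.51, 7.38 and 8.13 in progenitors and 4.64, 3.95, 4.61 and 5.76 in BMMC. The highest BMMC array lay above the lowest progenitor array. The log2 difference was -2.20 ± 0.54 (adjusted p = 0.00248), and it was no longer called with the percentile of all probes or without scaling (-0.19).

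The brighter members miR-690 and miR-720 were also lower in BMMC under the main scaling. miR-690 had log2 signals of 9.55, 9.72, 9.89 and 9.99 in progenitors and 8.31, 8.45, 8.69 and 8.85 in BMMC, a log2 difference of -1.21 ± 0.13 (adjusted p = 2.31e-06). miR-720, the transfer RNA fragment, had 13.78, 14.08, 13.80 and 13.39 in progenitors and 12.46, 12.28, 12.55 and 12.83 in BMMC, a log2 difference of -1.23 ± 0.13 (adjusted p = 1.42e-06). Neither pair of groups overlapped. Both differences turned positive with the percentile of all probes (0.34 and 0.31) and without scaling (0.80 and 0.77), and neither was called in the authors' value table. Outside the range, miR-805, an entry also matched to a fragment of another RNA, averaged 6.90 in progenitors and 4.64 in BMMC. miR-801, another such entry, was above background on 1 array of either group and averaged 3.77 in progenitors and 3.56 in BMMC.

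miR-697 was the least secure of the falls. Its log2 signals were 6.20, 5.88, 5.69 and 5.08 in progenitors, the last not above background, and 5.02, 5.17, 4.85 and 5.15 in BMMC, so the groups overlapped. The log2 difference was -0.66 ± 0.23 (adjusted p = 0.0224). Without progenitor replicate 1, progenitor replicate 2 or BMMC replicate 3 it was not called, with values between -0.61 and -0.50. It turned positive with the percentile of all probes (0.79), without scaling (1.35), with quantile normalization (0.31) and in the authors' table (0.25).

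miR-721 was the single member that rose. Its log2 signals were 6.43, 6.15, 6.66 and 6.69 in progenitors and 7.17, 7.52, 7.23 and 7.40 in BMMC, with no overlap. The log2 difference was 0.85 ± 0.14 (1.80-fold, adjusted p = 8.30e-05). Relative to the median of all tested miRNAs it was 1.14 to 1.67 higher under all 6 scalings, and the difference itself was lost only under normexp (0.10). Its seed partner miR-130a, named here after its values were seen, went the other way in this comparison. miR-130a averaged 7.92 ± 0.27 in progenitors and 4.41 ± 0.21 in BMMC, a log2 difference of -3.51 ± 0.15 (adjusted p = 4.78e-10).

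**Figure D2:**
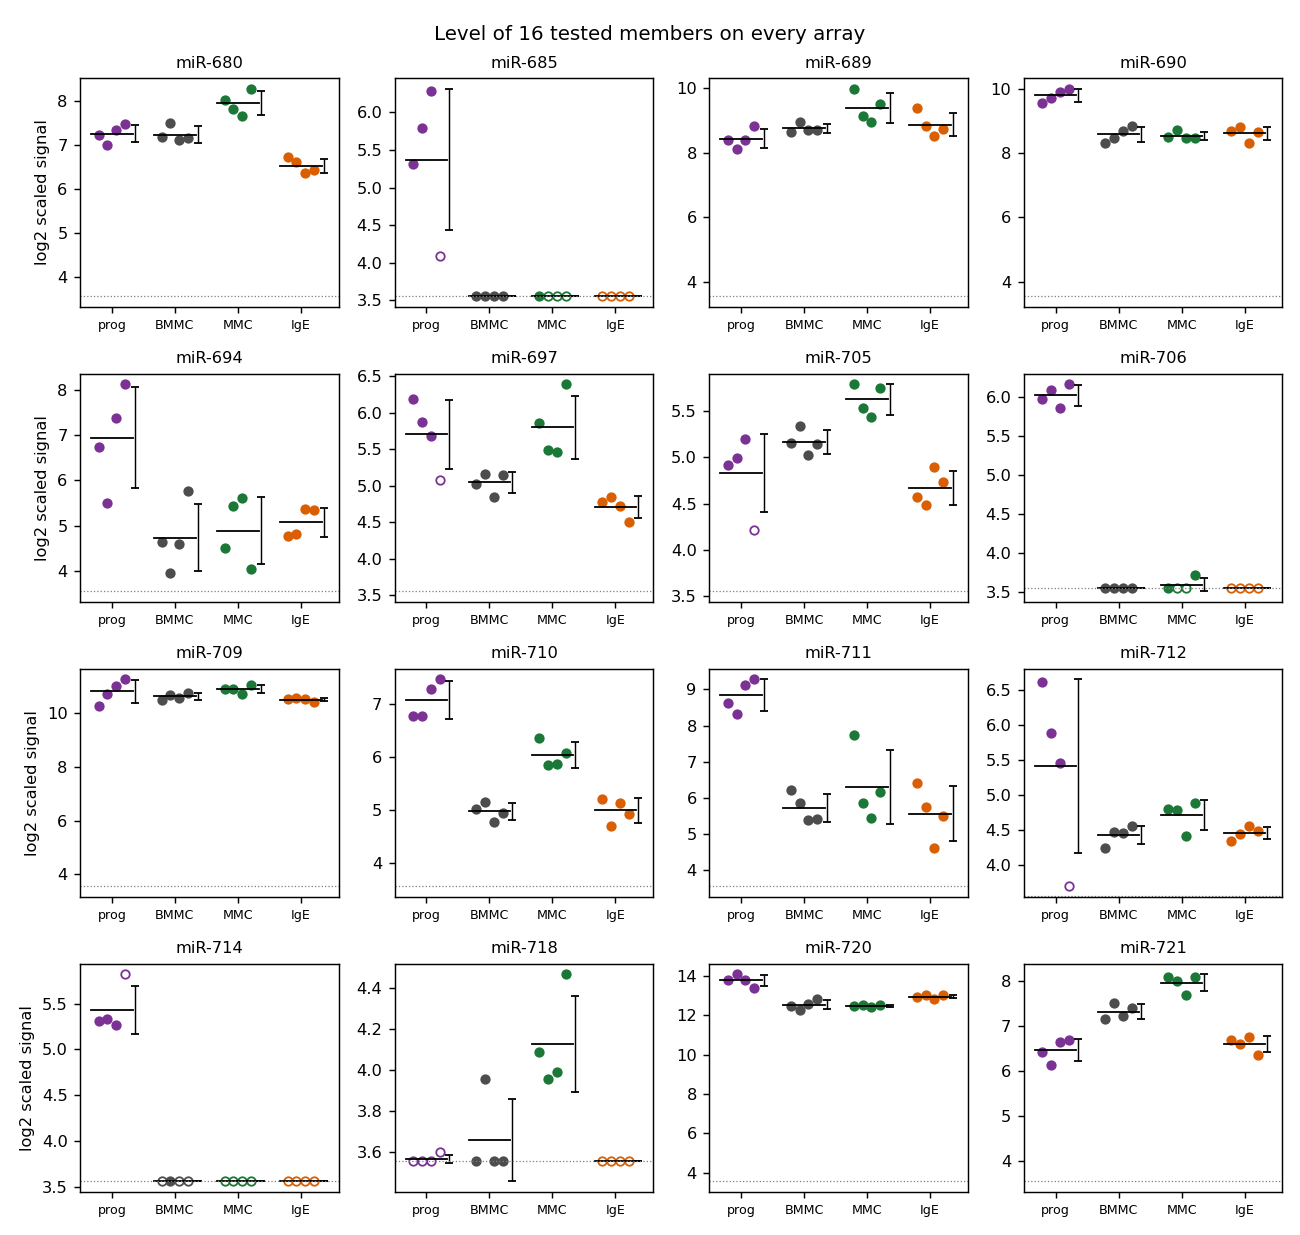
Log2 scaled signal (vertical axes, which differ between panels) of 16 tested members on each of the 4 arrays of progenitors (prog), BMMC, MMC and IgE_BMMC (IgE); open points were not well above background, horizontal lines are means, bars are SD (n = 4) and the dotted line is the floor. miR-706, miR-711 and miR-710 are highest in progenitors, and miR-680 and miR-721 are highest in MMC and lower in IgE_BMMC.

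With the mucosal cytokines, 5 members rose and 0 fell against BMMC among 18 tested: miR-680, miR-697, miR-710, miR-718 and miR-721. They are 27.8% of the members, beside 20.8% of all 207 tested miRNAs called, 16.9% higher and 3.86% lower. The median log2 difference was 0.31 over the members and 0.01 over all tested, and 5 members did not overlap beside 34.3% of all tested. Mouse miRNAs with higher numbers had a median of 0.43, and those with lower numbers 0.00. BMMC enter 3 of the 4 comparisons, so these share arrays. Splits of higher and lower calls were 5 to 0 here, 1 to 0 with the percentile of all probes, 0 to 6 without scaling, 4 to 1 with quantile normalization, 1 to 0 in the authors' table and 15 to 0 with normexp.

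miR-710 led, with log2 signals of 6.37, 5.86, 5.87 and 6.09 in MMC, all above the 4 BMMC arrays. This rise was 1.07 ± 0.18 on the log2 scale (2.10-fold, adjusted p = 0.000702). Under the main scaling its MMC level remained below all 4 progenitor arrays, a difference that was not tested. Before scaling these groups overlapped, at 6.30 ± 0.35 in MMC and 6.34 ± 0.43 in progenitors (SD, n = 4). The call against BMMC was lost without scaling, where the difference was 0.06.

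miR-680 had log2 signals of 7.17, 7.51, 7.10 and 7.16 in BMMC and 8.03, 7.83, 7.66 and 8.28 in MMC. The groups did not overlap, and the log2 difference was 0.71 ± 0.14 (adjusted p = 0.00296). miR-721 had 8.10, 8.01, 7.69 and 8.09 in MMC, each above every BMMC array, and a log2 difference of 0.64 ± 0.14 (adjusted p = 0.00398). Without scaling the differences of miR-680 and miR-721 reversed to -0.30 and -0.37, and neither was called with the percentile of all probes or in the authors' table.

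miR-697 had log2 signals of 5.86, 5.49, 5.46 and 6.40 in MMC, above every BMMC array, and a log2 difference of 0.75 ± 0.23 (adjusted p = 0.0327). That call was lost when BMMC replicate 1, 3 or 4 or MMC replicate 1 or 4 was left out, with differences from 0.55 to 0.79. miR-718, the Irak1 member, stood at 3.56, 3.96, 3.56 and 3.56 in BMMC and 4.09, 3.96, 3.99 and 4.47 in MMC. The lowest MMC array and the highest BMMC array met, and the log2 difference was 0.47 ± 0.11 (adjusted p = 0.00558), largely a distance to the floor. All 4 BMMC arrays were nevertheless called above background. On the IgE_BMMC arrays, all at the floor, the SD of miR-718 was 0, which narrows this SE. The differences of miR-697 and miR-718 also reversed without scaling, to -0.26 and -0.41. Both were lost with the percentile of all probes and in the authors' table. miR-697 was also lost with quantile normalization, with no filter and with the replicate number as a block.

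After IgE activation, 2 members fell (miR-680 and miR-721) and 1 rose (miR-720) against BMMC among 18 tested. They are 16.7% of the members, beside 25.6% of all 207 tested miRNAs called, 18.4% higher and 7.25% lower. The median log2 difference was 0.00 over the members and 0.01 over all tested. The groups did not overlap in 4 members, beside 28.5% of all tested. Splits of higher and lower calls were 1 to 2 here, 0 to 4 with the percentile of all probes, 0 to 16 without scaling, 0 to 3 with quantile normalization, 0 to 3 in the authors' table and 13 to 0 with normexp.

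miR-680 had log2 signals of 6.72, 6.60, 6.35 and 6.42 in IgE_BMMC, all below every BMMC array. The log2 difference was -0.71 ± 0.14 (1.64-fold lower, adjusted p = 0.00254). miR-721 had 6.70, 6.61, 6.77 and 6.36 in IgE_BMMC, also without overlap, and a log2 difference of -0.72 ± 0.14 (1.64-fold lower, adjusted p = 0.00173). Both falls were lost only under normexp among the 9 alternatives on all arrays, at -0.03 and -0.08. For comparison, the activation-responsive miR-132 averaged 4.01 in BMMC and 7.22 in IgE_BMMC.

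miR-720 had log2 signals of 12.92, 13.02, 12.82 and 13.01 in IgE_BMMC, the lowest of them just under the highest BMMC array, and a log2 difference of 0.41 ± 0.13 (adjusted p = 0.0336). The call was lost without BMMC replicate 1, 2 or 3 and without IgE_BMMC replicate 1, 2 or 4, where differences ran from 0.33 to 0.42. It turned negative without scaling (-1.62) and with quantile normalization (-0.26). The call was also lost with the percentile of all probes, in the authors' table, with no filter and with the replicate number as a block.

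MMC and IgE_BMMC were separated by 7 of the 14 members tested. Higher in MMC were miR-680, miR-697, miR-705, miR-710, miR-718 and miR-721, and lower was miR-720. Of all 174 miRNAs tested in this comparison 31.0% were called, 18.4% higher and 12.6% lower. The median log2 difference was 0.54 over the members and -0.07 over all tested, and 8 members did not overlap beside 43.7% of all tested. Mouse miRNAs with higher numbers leaned the same way: 8 of 12 tested were higher and 0 lower, the median was 0.94, and 10 did not overlap. Those with lower numbers had 18 of 147 higher and 20 lower, with a median of -0.08. Splits were 6 to 1 here, 6 to 0 with the percentile of all probes, 13 to 0 without scaling, 7 to 1 with quantile normalization, 6 to 0 in the authors' table and 4 to 6 with normexp.

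miR-680 and miR-721 showed the largest differences here, at 1.43 ± 0.14 (2.69-fold, adjusted p = 8.84e-06) and 1.36 ± 0.14 (2.57-fold, adjusted p = 8.84e-06) on the log2 scale. For both, the lowest MMC array lay well above the highest IgE_BMMC array. Both were called under each of the 9 alternatives on all arrays, from 0.74 to 2.45 for miR-680 and from 0.73 to 2.38 for miR-721. Under the main scaling the level of miR-721 was lowest in progenitors and IgE_BMMC, whose arrays overlap, then BMMC, then MMC. That of miR-680 was lowest in IgE_BMMC, then progenitors and BMMC, whose arrays overlap, then MMC. Without scaling BMMC averaged above MMC, at 8.50 and 8.20 for miR-680 and 8.59 and 8.22 for miR-721. With the percentile of all probes, no scaling, quantile normalization or the authors' table, miR-680 was called higher in BMMC than in progenitors (0.63 to 1.99).

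miR-705 had log2 signals of 5.79, 5.53, 5.43 and 5.74 in MMC and 4.57, 4.48, 4.90 and 4.73 in IgE_BMMC. The groups were apart, with a log2 difference of 0.95 ± 0.17 (1.94-fold, adjusted p = 0.000669), and it was not called in its comparisons with BMMC. Those calls changed when single arrays were left out: MMC against BMMC passed without progenitor replicate 4 (0.46), IgE_BMMC against BMMC without progenitor replicate 3 or 4 or IgE_BMMC replicate 3 (-0.57 to -0.50), and BMMC against progenitors without progenitor replicate 3 (0.46). miR-697 had 4.78, 4.84, 4.72 and 4.50 in IgE_BMMC and was 1.09 ± 0.23 higher in MMC (adjusted p = 0.00216). miR-710 had 5.22, 4.70, 5.13 and 4.93 in IgE_BMMC and was 1.05 ± 0.18 higher in MMC (adjusted p = 0.000368). All 3 turned negative under normexp, at -0.21, -0.14 and -0.041, and miR-697 was also lost with the percentile of all probes, with quantile normalization and in the authors' table.

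miR-718 was above background on 4 of 4 MMC arrays and on no IgE_BMMC array. Its level in IgE_BMMC therefore has only an upper limit, and MMC was at least 1.21-fold higher, from the mean of MMC against the faintest signal above background on each IgE_BMMC array. No test was made of this limit. The call comes from the log2 difference to the floor, 0.57 ± 0.11 (adjusted p = 0.000775 with limma), with an SD of 0 in IgE_BMMC. That difference reversed to -0.48 under normexp. miR-720 was 0.48 ± 0.13 lower in MMC (adjusted p = 0.0118), and its 4 MMC arrays, at 12.44, 12.51, 12.40 and 12.49, lay below every IgE_BMMC array. That call was lost with the percentile of all probes and in the authors' table, and the difference turned to 0.54 without scaling.

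**Figure D3:**
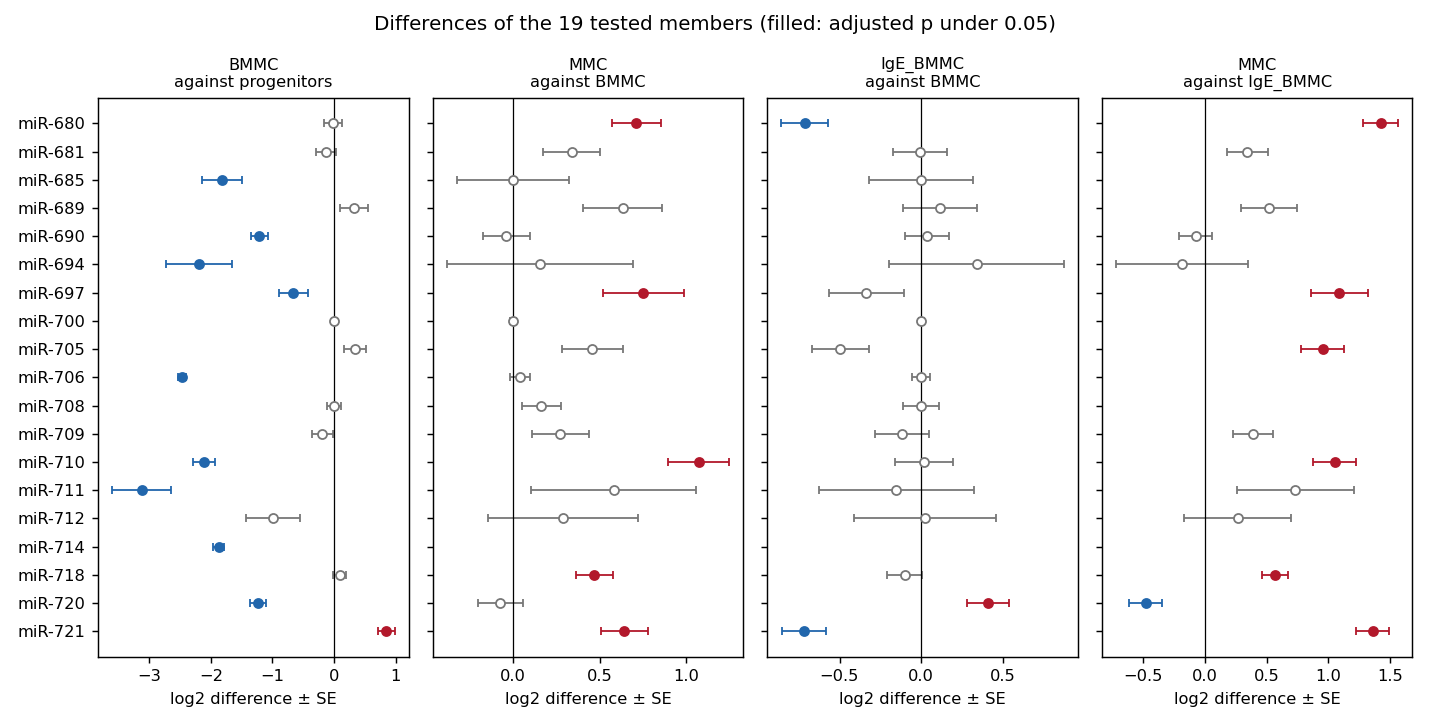
Log2 difference (horizontal axis) with its SE for each of the 19 tested members in the 4 comparisons; filled points passed an adjusted p under 0.05, red for higher and blue for lower in the first-named group, and open points did not pass. Most filled points lie left of 0 in BMMC against progenitors and right of 0 in both comparisons of MMC.

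Several members lower in BMMC than in progenitors were called in no later comparison. miR-711 had log2 signals of 7.75, 5.85, 5.44 and 6.17 in MMC and 6.42, 5.74, 4.61 and 5.51 in IgE_BMMC. Under the main scaling all of these lay below the progenitor arrays. Before scaling the highest MMC array (8.15) lay above the lowest progenitor array (7.43). One MMC array, replicate 1, stood well above the rest, and MMC exceeded BMMC by 0.58 ± 0.47 (adjusted p = 0.434). miR-690 had log2 signals of 8.51, 8.72, 8.46 and 8.45 in MMC and 8.67, 8.80, 8.32 and 8.65 in IgE_BMMC, overlapping BMMC. Its differences from BMMC were -0.04 (95% interval -0.33 to 0.25) and 0.04 (-0.25 to 0.33). miR-694 had 4.51, 5.43, 5.61 and 4.04 in MMC and 4.78, 4.83, 5.37 and 5.34 in IgE_BMMC, within the spread of BMMC. miR-706 and miR-685 lay at the floor on every array of IgE_BMMC and left it on a single MMC array, replicate 4, for miR-706 (3.73) and on no MMC array for miR-685.

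Of the 19 tested members, 6 were called in no comparison under the main processing: miR-681, miR-689, miR-700, miR-708, miR-709 and miR-712. Other ways of processing called some of them. miR-709, bright on every array, ranged from 10.26 to 11.28 in progenitors and 10.73 to 11.07 in MMC, and was tightest in BMMC (10.48 to 10.77) and IgE_BMMC (10.42 to 10.57). Its difference between BMMC and progenitors was -0.19, with a 95% interval from -0.55 to 0.17, and between MMC and IgE_BMMC 0.39, from 0.03 to 0.75 (adjusted p = 0.0851). The interval of the second lies above 0 before adjustment for the miRNAs tested. Without progenitor replicate 1 both passed the threshold, the first at -0.38 (adjusted p = 0.0146) and the second at 0.39 (adjusted p = 0.0163), and the second also without progenitor replicate 4 (adjusted p = 0.0362). The first was -0.04 without progenitor replicate 4. miR-689 averaged 9.38 ± 0.46 in MMC, 8.86 ± 0.36 in IgE_BMMC, 8.75 ± 0.13 in BMMC and 8.43 ± 0.30 in progenitors (SD, n = 4). BMMC exceeded progenitors by 0.32, which was not called. That difference was called with the percentile of all probes (1.86), without scaling (2.32), with quantile normalization (0.73) and in the authors' table (1.06). The other 5 of the 9 alternatives did not call it, with -0.13 from the mean of all probes. Its log2 difference between MMC and BMMC was 0.63 (adjusted p = 0.0650), which passed without progenitor replicate 4, MMC replicate 3 or IgE_BMMC replicate 1 (0.63 to 0.78). Against IgE_BMMC it was 0.52 (adjusted p = 0.0919) and passed without MMC replicate 3 or IgE_BMMC replicate 1 (0.67 to 0.69).

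miR-712, the ribosomal RNA member, spread widely among progenitors, at 6.62, 5.88, 5.46 and 3.69, the last not above background. The other groups were narrow, at 4.24 to 4.55 in BMMC, 4.40 to 4.88 in MMC and 4.34 to 4.55 in IgE_BMMC. The log2 difference between BMMC and progenitors was -0.99, with a 95% interval from -1.93 to -0.05 (adjusted p = 0.0595). Single progenitor arrays moved it: the difference was -1.56 without replicate 4, which passed the threshold, and -0.59 without replicate 1 (adjusted p = 0.185). Without scaling it turned to 0.97.

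miR-681, miR-700 and miR-708 stayed near the floor throughout. miR-681 reached at most 4.36 in MMC, where 3 of 4 arrays were above background, and miR-708 at most 4.21 on a single MMC array. miR-700 was above background on 4 BMMC arrays and 1 MMC array and on no other. Of 11 differences in which a member was above background on no array of one group, the limit on the fold was under 1 in 10, so no fold is given for those. The exception is miR-718 above.

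Probes of one miRNA cover different lengths of it, here 10 to 19 bases per the array's annotated positions, and give separate readings. Of the 19 tested members, 15 have 4 probes and 4 have 2. The brightest probe stood for the miRNA: it had the longest footprint in 10 of 17 members with a mapped position, the shortest in 4 and an intermediate one in 3. Of the 25 calls in all comparisons, 24 had another probe above background on at least 3 arrays of either group, and in all 24 every such probe pointed the same way. Part of this was fixed in advance, as a probe at the floor in the lower group cannot point the other way. That holds for miR-685, miR-706, miR-711 and miR-714 in BMMC against progenitors, and for miR-718 in MMC against IgE_BMMC. The probes also share arrays and scaling. The remaining call was the fall of miR-694.

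miR-680 and miR-721 gave the closest agreement. All 4 probes of each were above background on all 16 arrays. Between MMC and IgE_BMMC the other probes of miR-680 gave log2 differences of 1.30 to 1.43 beside 1.43 for the chosen one, and those of miR-721 gave 1.34 to 1.45 beside 1.36. For the rise of miR-721 in BMMC over progenitors the others gave 0.90 to 0.93 beside 0.85.

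miR-711 and miR-694 rest on fewer probes. The 16-base probe of miR-711 was above background on 16 arrays, the 15-base probe on 9, and the 13-base and 14-base probes on none. The 15-base probe fell by 1.95 on the log2 scale from progenitors to BMMC, ending at the floor. For miR-694 the 16-base probe was above background on 16 arrays, and the probes of 15, 17 and 18 bases on none, each at the floor in every group. A probe covering 1 base more and one covering 1 base less thus stayed at the floor where the chosen probe averaged 6.94 in progenitors. miR-710 had 2 probes above background on 16 arrays, with differences of -2.11 each between BMMC and progenitors, while its 12-base probe was above it on 5 arrays and its 11-base probe on none. For miR-706 the 19-base probe was above background on 10 arrays and the 18-base probe on 3, all progenitors, where it fell by 1.19 to the floor.

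Probes disagreed within miR-689 and miR-705. Between BMMC and progenitors the chosen probe of miR-689 gave 0.32 and its other probe, also above background on all 16 arrays, gave -0.57. The chosen probe of miR-705 gave 0.34 and its other 3 gave 0.39, -0.12 and -0.74, moving from positive to negative as the footprint lengthened from 10 to 13 bases. Neither member was called there under the main processing. Between MMC and IgE_BMMC the probes of miR-705 agreed again, from 0.90 to 0.95.

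**Figure D4:**
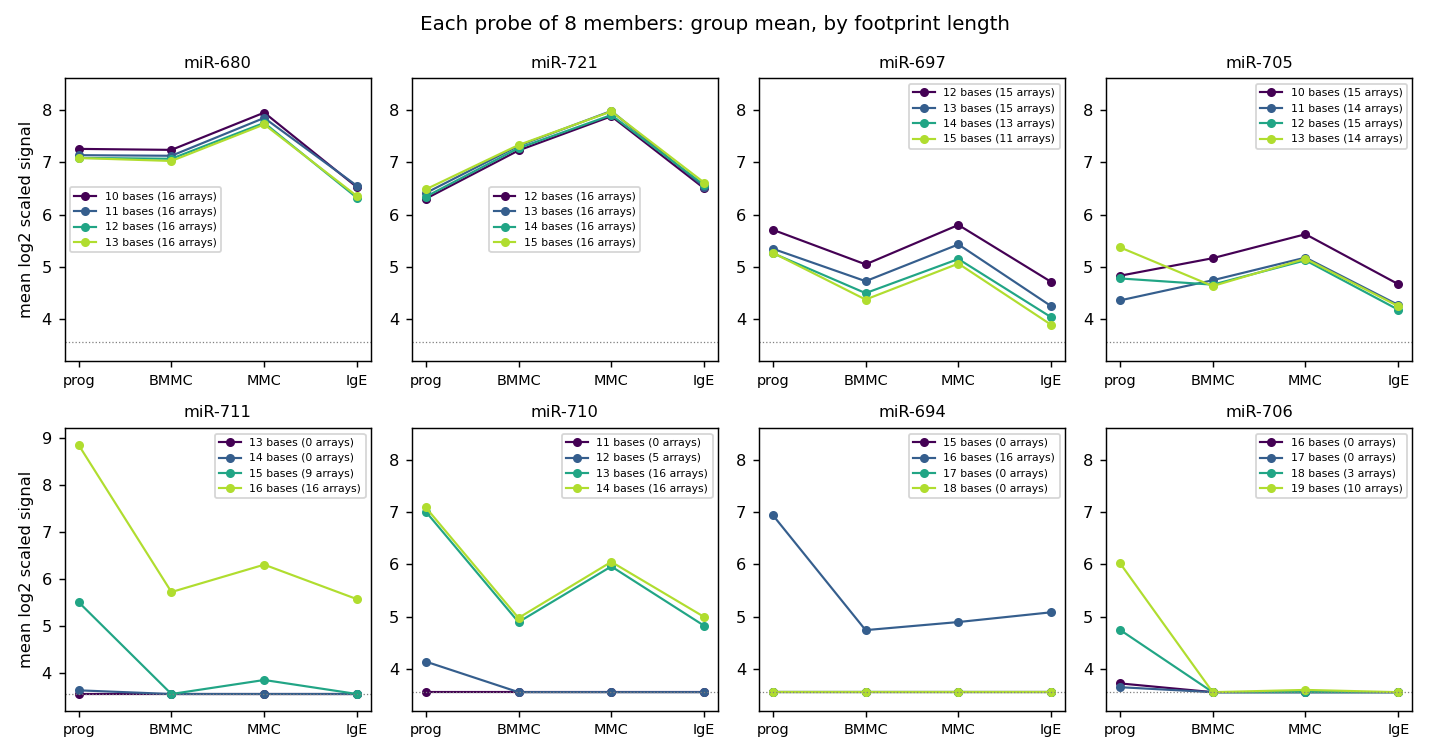
Mean log2 scaled signal (vertical axis) of every probe of 8 members in the 4 groups, coloured by the number of bases the probe covers, with the number of arrays above background in the key; the dotted line is the floor. The lines of miR-680 and miR-721 run together, those of miR-705 part in progenitors, and in miR-694 only the 16-base probe leaves the floor.

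Tested members with at least 1 probe above background on no array numbered 9 of 19 (47.4%). Among tested mouse miRNAs with lower numbers the count was 33 of 183 (18.0%), and among those with higher numbers 6 of 14 (42.9%). These shares are a description of the array, with no test.

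Each change of scaling or background lost more calls than leaving out any single array, which lost at most 3. Of the 25 calls, 14 kept their direction and passed the threshold with the percentile of all probes, 12 without scaling, 21 with quantile normalization, 18 with normexp, 14 in the authors' value table and 25 with the mean of all probes of a miRNA in place of the brightest. Read against the median of all tested miRNAs in each setting, 20 of the 25 lay on the same side under all 6 scalings. The exceptions were miR-690, miR-697 and miR-720 in BMMC against progenitors, miR-720 in IgE_BMMC against BMMC and miR-718 in MMC against IgE_BMMC. The 4 calls that held under each of the 9 alternatives on all arrays were the falls of miR-706 and miR-714 and the higher levels of miR-680 and miR-721 in MMC than in IgE_BMMC. Both falls are distances to the floor under the main processing. miR-714 also passed the filter only through progenitors, where it is high, so holding under the alternatives is no separate support for its fall. Each of the 2 slides holds 2 arrays of every group, and all 25 differences kept their direction within both slides.

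**Figure D5:**
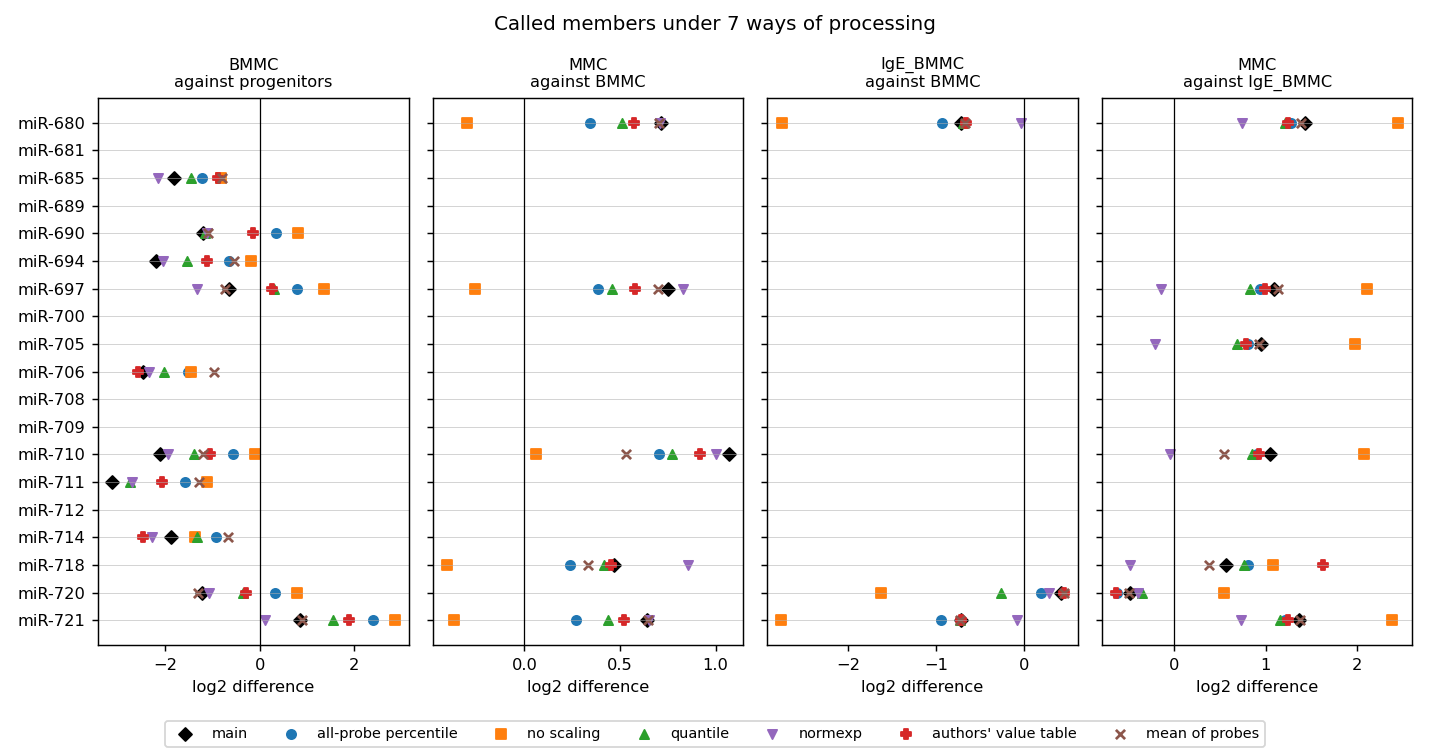
Log2 difference (horizontal axes, which differ between panels) of the called members in the 4 comparisons under the main processing (black diamonds) and 6 others, 1 symbol each. In BMMC against progenitors miR-690, miR-697 and miR-720 have symbols on both sides of 0, while those of miR-706 and miR-714 all lie left of it, and in MMC against IgE_BMMC those of miR-680 and miR-721 all lie right of it.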

How the data were processed

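Total RNA of mouse bone marrow cultures was hybridised to 16 one-colour arrays. The authors extracted spots with Agilent Feature Extraction, per the file headers, and the deposited values are background-subtracted intensity with no scaling between arrays. The value table deposited by the authors holds log2 values. It could be rebuilt from the total signal per miRNA, less the 75th percentile of each array and centred on each miRNA's median (median deviation 0.016, array medians -0.98 to 0.82), and served as an alternative. Coordinates of probes are mm9, per the file headers.

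Spots of a probe were averaged without outliers, each array was scaled by the 75th percentile of 205 probes above background on all 16 arrays, and each miRNA was read from its brightest probe. The 217 miRNAs detected on 3 or more arrays of any group were fitted in limma 3.58.1 (R 4.3.3) with 1 coefficient per group, 12 residual and 0.876 prior degrees of freedom, and Benjamini-Hochberg adjustment over each comparison. The fit was tested on simulated data. Alternatives were other scalings, the normexp background with an offset of 50, no filter, the mean of probes, slide and replicate blocks, and leaving out each array. No spot was saturated, and 4 arrays per group limit the precision. All members may be named: those that passed the filter are described with values and the others by counts. The members and lists were chosen with earlier results of these data known. Tables were made with Python 3.11.15.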

Additional observations from a re-analysis of the deposited data

Results flagged for a closer look

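Of 60 groups of 4 arrays with any spread, 9 had 1 array far from the other 3 by Dixon's criterion, which chance alone gives in about 1 of 20 groups. In 7 of the 9 the other arrays all sat at the floor of 3.56, so any value off the floor meets it. These were the log2 signals of miR-681 in progenitor replicate 1 (4.10) and BMMC replicate 2 (3.58), miR-700 in IgE_BMMC replicate 3 (3.56), miR-706 in MMC replicate 4 (3.73), miR-708 in MMC replicate 4 (4.21), and miR-718 in progenitor replicate 4 (3.598) and BMMC replicate 2 (3.96). The other two were miR-680 in BMMC replicate 2, at 7.51 beside 7.10 to 7.17, and miR-714 in progenitor replicate 4, at 5.82 beside 5.26 to 5.34 and not above background there.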

How the results depend on the processing

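Where a value below changes side with the scaling, the cause was not tested, beyond what the alternatives do by construction: without scaling, group brightness enters each difference, and normexp lifts dim probes on dim arrays. The number of members called in BMMC against progenitors was 10, and 16 under normexp. In MMC against BMMC it was 5, and 1 with the percentile of all probes, 15 under normexp and 1 in the authors' table. In IgE_BMMC against BMMC it was 3, and 16 without scaling and 13 under normexp. In MMC against IgE_BMMC it was 7, and 13 without scaling. Leaving out 1 array at a time gave 9 to 11, 4 to 7, 2 to 4 and 7 to 8 in that order. Replicate numbers showed no clear pairing of the arrays. Of the pairs with the same number, 8 of 24 correlated over 0.1 in their deviations (range -0.41 to 0.47), beside 17 of 72 with other numbers. The mean correlations were 0.046 and -0.011, and 5 of 16 arrays correlated best with their own number. Such weak correlations cannot exclude a pairing. With the replicate block the calls were 10, 4, 2 and 7, without miR-697 in MMC against BMMC (adjusted p = 0.0601) and miR-720 in IgE_BMMC against BMMC (adjusted p = 0.0722). With the slide as a block they were 10, 5, 3 and 7, and the slide term itself passed in 0 of the 217 fits with limma (9 before adjustment, at 0.05). Within a slide, 2 arrays per group gave values but no counts.

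Of 69 differences, 48 values under an alternative lay on the other side of 0 with a call on either side, 19 of them for differences called here. In BMMC against progenitors these were, with the percentile of all probes, miR-680 (1.53), miR-681 (0.38), miR-690 (0.34), miR-697 (0.79), miR-709 (1.36) and miR-720 (0.31). Without scaling they were miR-680 (1.99), miR-681 (1.24), miR-690 (0.80), miR-697 (1.35), miR-709 (1.82), miR-712 (0.97) and miR-720 (0.77). Quantile normalization reversed miR-680 (0.63) and miR-697 (0.31), the authors' table miR-680 (0.95), miR-681 (1.80), miR-697 (0.25) and miR-709 (0.80), and normexp miR-705 (-1.003) and miR-718 (-1.48). In MMC against BMMC only the unscaled values reversed, for miR-680 (-0.30), miR-681 (-0.56), miR-697 (-0.26), miR-705 (-0.55), miR-709 (-0.74), miR-718 (-0.41) and miR-721 (-0.37). In IgE_BMMC against BMMC the unscaled values of miR-689 (-1.92), miR-690 (-1.997), miR-694 (-1.69), miR-710 (-2.02), miR-712 (-2.01) and miR-720 (-1.62) reversed, as did miR-720 with quantile normalization (-0.26). Normexp reversed miR-681 (1.40), miR-697 (0.97), miR-705 (0.87), miR-711 (0.79) and miR-718 (1.34). In MMC against IgE_BMMC the unscaled values of miR-690 (0.95) and miR-720 (0.54) reversed, and under normexp miR-681 (-0.56), miR-697 (-0.14), miR-705 (-0.21), miR-710 (-0.041), miR-712 (-0.58) and miR-718 (-0.48). Differences not called here also gained calls without a reversal. They numbered 6 with the percentile of all probes, 20 without scaling, 7 with quantile normalization and 25 under normexp. In the authors' table they numbered 6 and with the mean of all probes 5. Thus miR-718 in BMMC against progenitors was called higher under 4 of the 9 alternatives, which reached 3.55. Signals below the faintest call above background, highest on progenitor replicate 4, carry no order.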
